A study of Mus musculus with 8 samples.

Results

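Non-cycling CD8 T cells that carried at most 1 of the checkpoint receptor genes Pdcd1, Havcr2, Lag3 and Tigit numbered 563 of the 29496 deposited cells. They were chosen by detection, meaning a deposited value above 0, which is at least 1 unique molecular identifier (UMI, a tag that marks 1 captured RNA molecule). A member had at least 2 of the 5 T cell genes Cd3d, Cd3e, Cd3g, Trac and Trbc2, had Cd8a or Cd8b1, and had no UMI of Cd4 or Foxp3. It also had at most 1 of the 6 cell cycle genes Mki67, Top2a, Birc5, Cenpf, Ube2c and Ccna2. The cells came from 8 single-cell libraries of subcutaneous tumors of MB49, a mouse urothelial cancer line. All hosts were C57BL/6 mice carrying UbcreERT2/+, a tamoxifen-inducible Cre recombinase under a ubiquitin promoter that is active in most tissues, so host cells of many kinds can lose the gene. The 4 libraries numbered 1, 2, 5 and 6 in the labels came from Atg7+/+ hosts (wild type), and the 4 numbered 3, 4, 7 and 8 from Atg7f/f hosts labelled Atg7∆/∆ after tamoxifen (deleted). Both genotypes are described under 1 protocol of tamoxifen on 4 days, tumor cells injected under the skin 1 week later to give 2 tumors per mouse, and collection 3 weeks after injection. Tumors were dissociated, and cells were enriched over a density step before encapsulation. The labels give no age, and they do not tie the 2 tumors of a mouse to libraries. Libraries of 1 genotype may therefore share an animal, and p-values over libraries may be too small.

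CD8 T cells recognise peptides on MHC class I molecules and kill the presenting cell with perforin, which opens the membrane, and granzymes, proteases that enter through it. Cells stimulated again and again in tumors carry several inhibitory checkpoint receptors at once, while naive and memory cells keep Tcf7 and Il7r, which encode a transcription factor and a cytokine receptor. Atg7 encodes an enzyme of the conjugation systems that build autophagosomes, and the tumor cells, which were injected, do not carry the host's floxed allele. By its title the study asks whether autophagy holds back a T cell response, and the comparison here is of these CD8 T cells between the host genotypes, with the library as the replicate.

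Wild-type libraries 1, 2, 5 and 6 held 17, 122, 105 and 125 members, and deleted libraries 3, 4, 7 and 8 held 46, 64, 18 and 66. Libraries 1 and 7 thus rest on the fewest cells. Nkg7 and Ccl5, a granule membrane protein and a chemokine that the rule did not use, were found in 512 of 563 members (90.9%, exact 95% interval 88.3 to 93.2%) and 506 of 563 (89.9%, 87.1 to 92.2%). In cells with 3 or more malignant-cell markers and no T cell gene, used here as a measure of free RNA, the same genes had a UMI in 1.11% and 10.4% of 10392 cells over all libraries. Wild-type libraries 1, 2, 5 and 6 gave 1350, 1359, 4148 and 3234 of these cells. Deleted libraries 3, 4, 7 and 8 gave 27, 104, 100 and 70, so the pooled shares are mostly those of wild-type libraries. By library these shares reached 5.37% for Nkg7 (library 2) and 36.5% for Ccl5 (library 4), where the members had 96.7% and 95.3%. Cd8a, Cd8b1, Cd3e, Nkg7 and Ccl5 were each detected in the members of every library. The intervals cover counting error only.

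Genes of the rule are given as a description with no test, since they chose the cells. Cd3d was found in 84.2% of members, Cd3e in 81.0%, Cd3g in 76.6%, Trac in 67.7%, Trbc2 in 84.9%, Cd8a in 77.1% and Cd8b1 in 83.8%. Of the checkpoint genes, 249 members had none and 314 had exactly 1, while 243 cells just outside the rule had 2, 125 had 3 and 31 had all 4. Pdcd1 (PD-1) was the 1 found in 109 members, Lag3 in 77, Tigit in 70 and Havcr2 (TIM-3) in 58. Most members, 478, had none of the cell cycle genes and 85 had 1, and 37 cells just outside had 2. On the T cell genes, 73 members had 2, the fewest allowed, and 222 had all 5. Per 10000 UMIs of a member, Cd8a stood at 5.53, 5.96, 8.86 and 6.97 in libraries 1, 2, 5 and 6 and at 3.91, 3.40, 3.76 and 4.53 in libraries 3, 4, 7 and 8. Every deleted library was below every wild-type library for Cd8a, and for Cd3d the ranges were 5.41 to 7.61 and 8.25 to 10.9.

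The depth of the members and RNA of other cell types differed between libraries and stand here before the results they touch. Median UMIs per member were 3717, 2691, 1768 and 2208 in libraries 1, 2, 5 and 6, and 6206.5, 5452.5, 3007 and 3061.5 in libraries 3, 4, 7 and 8 (2596 ± 837 against 4432 ± 1643, SD, n = 4 each, exact two-sided permutation p = 0.114). A deeper cell passes a detection rule on few UMIs more easily and a rule on absence less easily. Members with at least 2 detected markers of 1 of 6 other types (monocytes and macrophages, neutrophils, malignant cells, fibroblasts, endothelial cells and B cells) numbered 6 of 17, 34 of 122, 17 of 105 and 30 of 125 in the wild-type libraries, and 45 of 46, 47 of 64, 2 of 18 and 17 of 66 in the deleted ones. Libraries 3 and 4, whose members were also the deepest, stand apart by this count. At 20 or more summed UMIs per 10000 of 1 list, the wild-type libraries had 2, 21, 12 and 17 such members. The deleted libraries had 25, 11, 2 and 16, so by that limit library 3 alone stood apart. All 6 fibroblast markers summed to 76.1, 0.443, 0.0507 and 0.912 UMIs per 10000 in libraries 1, 2, 5 and 6, and to 129.9, 2.83, 22.05 and 32.4 in libraries 3, 4, 7 and 8. Members with at least 2 fibroblast markers numbered 2 of 17, 3 of 122, 0 of 105 and 1 of 125 in libraries 1, 2, 5 and 6, and 44 of 46, 23 of 64, 1 of 18 and 6 of 66 in libraries 3, 4, 7 and 8. Fibroblast RNA was thus found in nearly all members of library 3, while the sums of libraries 1, 7 and 8 rested on 2, 1 and 6 cells with at least 2 of its markers. The 10 monocyte and macrophage markers summed to 1.29 to 14.9 in wild-type and 1.41 to 22.98 in deleted libraries, and the 9 dendritic cell markers to 3.82 to 23.7 and 7.62 to 33.5. The 8 markers of malignant cells, 1.04 to 3.88 in wild-type and 0.0677 to 0.864 in deleted libraries, did not overlap (exact permutation p = 0.0286), and neither did the 4 endothelial markers, 0.0783 to 0.148 and 0.221 to 0.657. Malignant and endothelial marker levels were low in every library. Markers of B cells stayed at or below 0.464 and those of gamma delta T cells at or below 0.642. NK cell markers summed to 1.98 to 10.7 with no order by genotype, and Cd4 and Foxp3 are at 0 by the rule. The 5 markers of the members themselves summed to 136, 167, 122 and 180.0 in the wild-type libraries and to 72.3, 76.2, 89.2 and 88.1 in the deleted ones. Of these markers, Cd8a, Cd8b1 and Cd3e are genes of the rule. Most of each sum was Ccl5, at 89.5, 122, 88.3 and 129 in the wild-type and 50.8, 54.4, 68.6 and 61.8 in the deleted libraries. Ccl5 is given again below, so the sum is not a separate result. The part that depth and RNA of other cell types play in the genotype results was not tested beyond the thinned and filtered values given beside them.

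**Figure D1:**
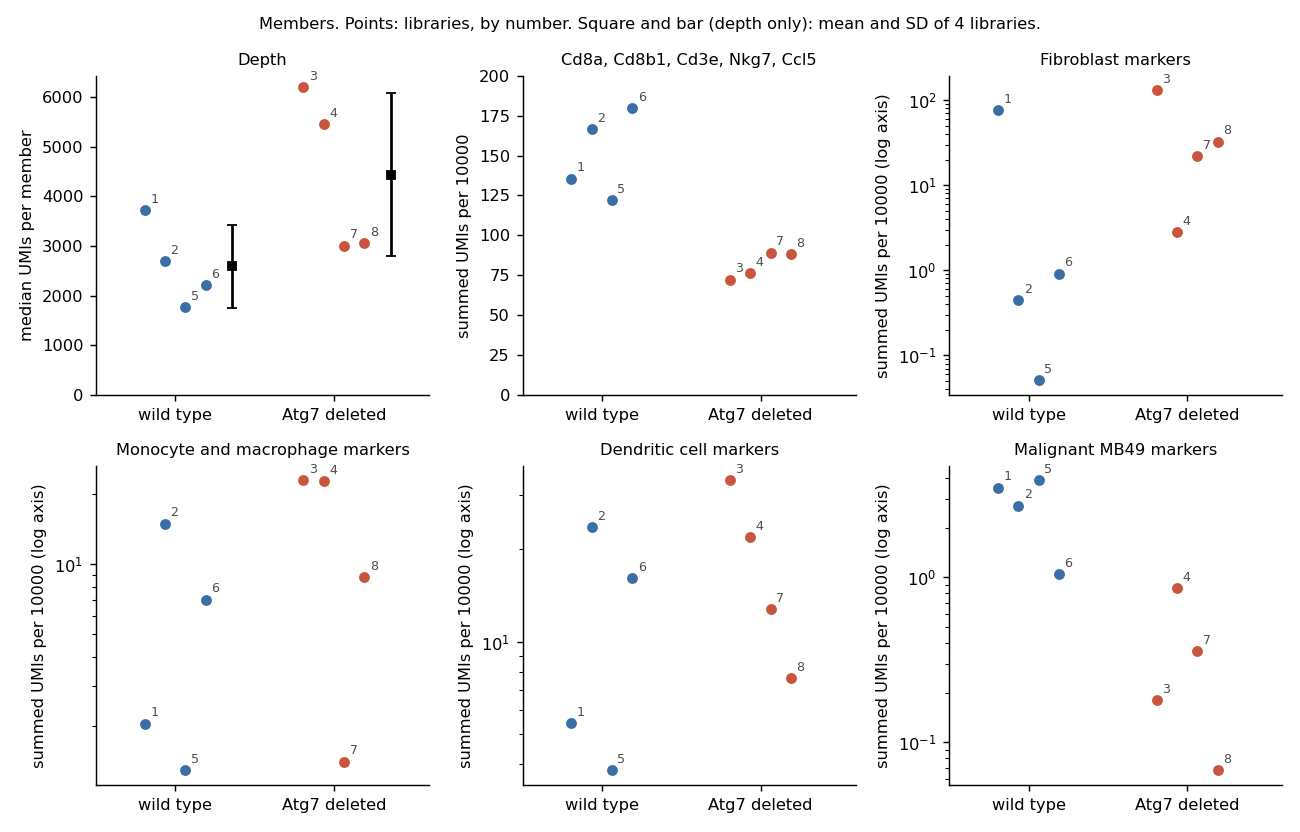
Median UMIs per member and summed UMIs per 10000 of fixed marker lists in members, by library (points, labelled with the library number) and host genotype, with log axes for the 4 lists of other cell types. The summed list of member markers, most of it Ccl5, lies between 122 and 180 in wild-type and between 72.3 and 89.2 in deleted libraries. It includes the rule genes Cd8a, Cd8b1 and Cd3e. Fibroblast markers are highest in libraries 3 and 1.

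Another property splits the libraries without following genotype. Cell barcodes of libraries 1 to 4 and of libraries 5 to 8 came from different sets, with 16 barcodes shared between libraries inside the first set, 161 inside the second and 3 between them. No barcode was a member in 2 libraries. Members of libraries 1 to 4 had 0 to 0.146 UMIs of T cell receptor beta variable (Trbv) genes per 10000, and those of libraries 5 to 8 had 1.27 to 6.03, although the labels name a 5' kit for all. Each set holds 2 libraries of each genotype, so tests were repeated within sets or with the set as a term.

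In each deleted library the members were a smaller share of T cells than in any wild-type library, while their mean share of CD8 T cells was larger. Of T cells, they made up 27.0, 30.3, 25.1 and 24.6% in libraries 1, 2, 5 and 6, and 16.1, 19.8, 11.9 and 10.7% in libraries 3, 4, 7 and 8. The genotypes did not overlap: 26.7 ± 2.56% against 14.7 ± 4.15% (SD, n = 4 each, exact two-sided permutation p = 0.0286, the smallest that 4 against 4 allows). After Benjamini-Hochberg adjustment over the 4 shares computed, p was 0.0762, so the difference did not pass. Within the barcode sets it was also in the same direction, with the smallest p that this split allows, 0.0556. CD8 T cells as a whole were also a smaller share in every deleted library. They made up 69.8, 63.8, 61.5 and 68.3% of T cells in the wild-type libraries and 23.9, 33.7, 17.2 and 22.8% in the deleted ones.

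Of CD8 T cells, the members made up 38.6, 47.5, 40.9 and 36.02% in libraries 1, 2, 5 and 6, and 67.6, 58.7, 69.2 and 47.1% in libraries 3, 4, 7 and 8. Deleted library 8 lay just below wild-type library 2, so the genotypes overlapped (40.7 ± 4.90% against 60.7 ± 10.1%, exact permutation p = 0.0571, adjusted 0.0762). Of non-cycling CD8 T cells the shares were 54.2 ± 10.0% and 75.6 ± 11.4% (exact permutation p = 0.0571, adjusted 0.0762), and of all deposited cells 2.14 ± 1.31% and 1.74 ± 0.652% (p = 0.657). None of the 4 passed the adjusted threshold. When every cell was first thinned to 1000 UMIs, the share of T cells was 42.5 ± 4.09% in wild-type and 14.7 ± 5.70% in deleted libraries, again without overlap (exact permutation p = 0.0286). The share of CD8 T cells was then 76.9 ± 4.20% against 85.1 ± 8.74% (exact permutation p = 0.171), a difference of 8.24 percentage points in place of 19.9. That of non-cycling CD8 T cells was 87.6 ± 8.76% against 91.0 ± 5.29% (exact permutation p = 0.486), a difference of 3.40 points in place of 21.4. Cells with no checkpoint gene at all made up 15.2 ± 4.35% of CD8 T cells in wild-type and 32.7 ± 5.62% in deleted libraries, without overlap (exact permutation p = 0.0286, adjusted 0.0571 over the 4 shares of that setting). Of T cells, however, they made up 9.92 ± 2.38% and 7.98 ± 2.80%, with overlap (exact permutation p = 0.257). That difference was -1.94 percentage points, against -12.1 under the main rule. The shares thus changed between these settings by the amounts shown. Thinning also leaves out cells under 1000 UMIs and loses checkpoint UMIs. Non-cycling CD8 T cells with 2 or more checkpoint genes then numbered 89 in place of 399. Members were then 73.3% (library 6) to 96% (library 3) of CD8 T cells. The part of depth in these shares was not tested further.

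**Figure D2:**
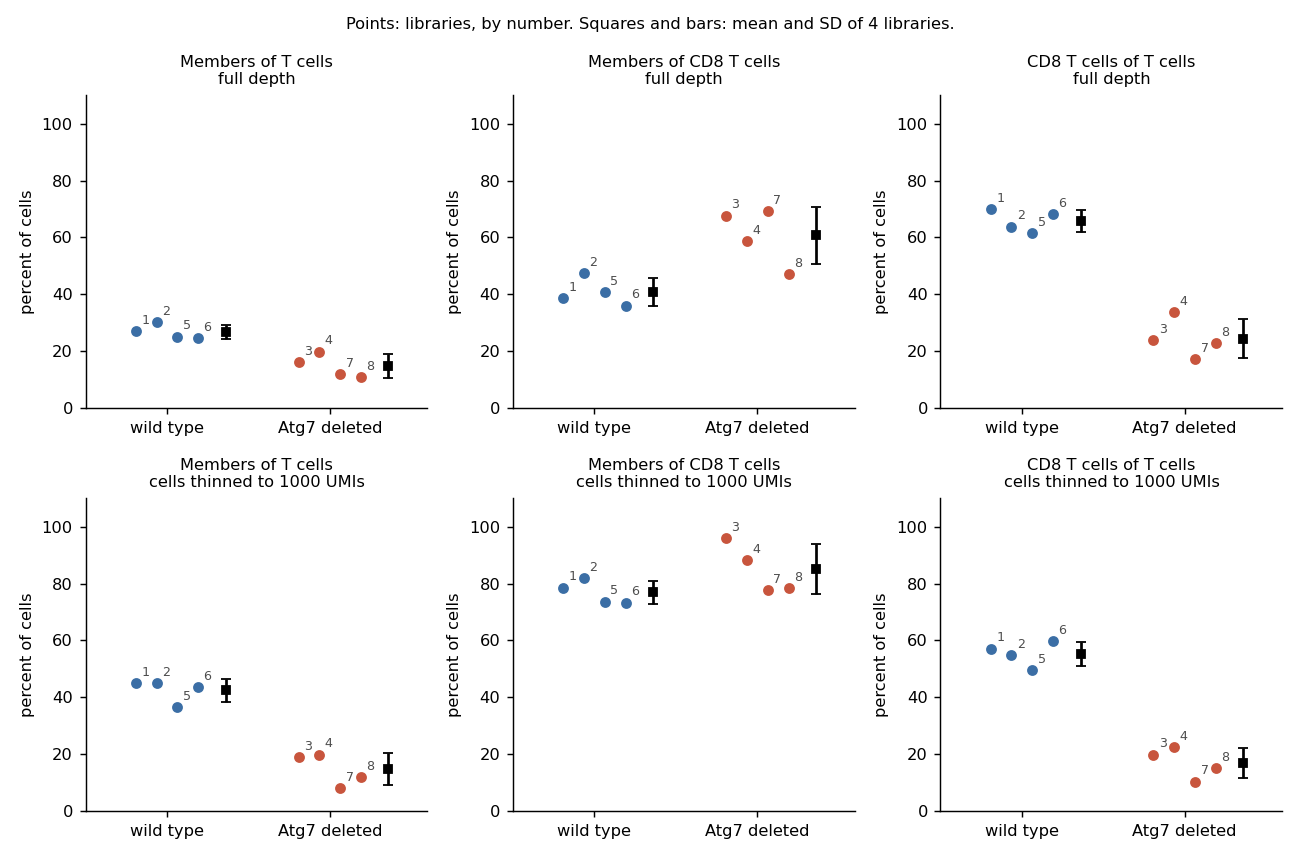
Members as percent of T cells and of CD8 T cells, and CD8 T cells as percent of T cells, by library and host genotype, at full depth (top) and after thinning to 1000 UMIs (bottom), with squares and bars for the mean and SD of 4 libraries. The share of T cells is lower in every deleted library in both rows, and the gap in the share of CD8 T cells is smaller after thinning.

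Across genes, no difference between host genotypes in the members passed in limma on 6904 tested genes. The largest log2 differences without overlap were in the kinase gene Pim1 and the adhesion protein gene Emb, higher in deleted hosts, and the long non-coding RNA AW112010 and the granule gene Nkg7, lower. The test compared, per library, the mean over members of log2(1 + UMIs per 10000), so log2 differences are on that scale, which compresses the change of weakly detected genes. The lowest adjusted p was 0.0635, and 0 genes (0.0%) had an adjusted p under 0.05. At an unadjusted p under 0.05 there were 687 genes (9.95%), of which 627 (9.08%) were higher and 60 (0.869%) lower in deleted hosts. The split depends on the scale: limma-voom on summed UMIs also passed 0 genes, with 298 higher and 321 lower unadjusted, and levels from members thinned to 1000 UMIs gave 95 and 91. In 307 genes (4.45%) the libraries of the genotypes did not overlap, 194 (2.81%) higher and 113 (1.64%) lower. A gene was tested where 5% of members had a UMI in at least 4 libraries. By that filter, 65 genes came in through deleted libraries alone and 1 through wild-type libraries alone. The 65 were all higher in deleted hosts and supplied 26 of the 194 genes and 52 of the 627, a direction that the filter fixed. Of the 3478 genes with 5% of members in all 8 libraries, 86 were higher and 72 lower without overlap, and 309 were higher and 33 lower at an unadjusted p under 0.05.

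With the barcode set as a term in the model, 3 of 6904 genes passed (0.0435%). The planned genotype test had no such term, and the sets were read from the deposited data themselves. By limma-voom on summed UMIs with the same term 0 passed, with 749 at an unadjusted p under 0.05, and the adjusted p were 0.0910 for Pim1, 0.0910 for Tmsb4x and 0.140 for Irf2bp2. Pim1 (chr17:29490753-29496112 in mm10), a serine/threonine kinase gene induced by cytokines through STAT factors, stood at 4.20, 3.18, 3.62 and 3.23 UMIs per 10000 in libraries 1, 2, 5 and 6 and at 7.34, 8.66, 9.40 and 6.72 in libraries 3, 4, 7 and 8. Every deleted library was above every wild-type library. The log2 difference was 1.32 (SE 0.27), with an adjusted p of 0.302 without the term and 0.0357 with it. Tmsb4x (chrX:167207093-167209315), which encodes the actin-binding peptide thymosin beta 4, stood at 181, 229, 131 and 138 in the wild-type libraries and at 113, 86.5, 63.1 and 94.9 in the deleted ones. All deleted libraries were lower, at -0.93 (SE 0.23) on the log2 scale, with adjusted p of 0.436 and 0.00530. The remaining gene, Irf2bp2 (chr8:126588296-126593986), a transcriptional cofactor gene named after its values were seen, stood at 0.115, 0.397, 0.935 and 0.275 and at 1.33, 1.65, 1.94 and 2.09. It was higher in all deleted libraries, at 0.73 (SE 0.11), with adjusted p of 0.0635 and 0.00625, and it was the 1 gene that passed when library 3 was left out (0.0463).

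The other genes of largest difference among those without overlap did not pass with or without the term. Emb stood at 2.61, 3.15, 2.28 and 3.76 in libraries 1, 2, 5 and 6 and at 4.24, 8.07, 5.90 and 5.69 in libraries 3, 4, 7 and 8, with a log2 difference of 1.07, SE 0.24, and an adjusted p of 0.396. Pdcd4, an inhibitor of translation initiation, stood at 1.51, 1.40, 1.26 and 0.979 and at 1.88, 3.30, 4.51 and 3.02, with 0.96 (SE 0.21) and an adjusted p of 0.302. Zfp36l1, an RNA-binding protein that destabilises transcripts, stood at 0.328, 0.628, 1.20 and 0.900 and at 5.75, 1.72, 1.47 and 2.39. Library 3, with the highest sum of fibroblast markers, was also the highest for Zfp36l1, and without it the log2 difference was 0.54 in place of 0.84. Dusp5, a phosphatase of ERK signalling, had means of 2.39 ± 0.735 and 4.44 ± 0.371 (SD, n = 4 each). In all 4 of these genes the lowest deleted library was above the highest wild-type library.

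Among genes lower in deleted hosts without overlap, AW112010, which is induced by interferon, had the largest difference of mean log2 values. Its levels were 27.8, 26.9, 36.2 and 36.4 in libraries 1, 2, 5 and 6 and 17.9, 11.6, 11.02 and 16.1 in libraries 3, 4, 7 and 8, with a log2 difference of -1.20, SE 0.36, and an adjusted p of 0.436. Lgals1, the gene of galectin 1, stood at 18.7, 15.5, 14.3 and 20.8 and at 9.80, 8.04, 7.25 and 9.27, and Sh3bgrl3, a small thioredoxin-like protein gene, at 12.1, 14.9, 12.4 and 16.6 and at 7.99, 7.88, 6.55 and 9.82. Neither passed, at adjusted p of 0.478 and 0.486, and neither overlapped.

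**Figure D3:**
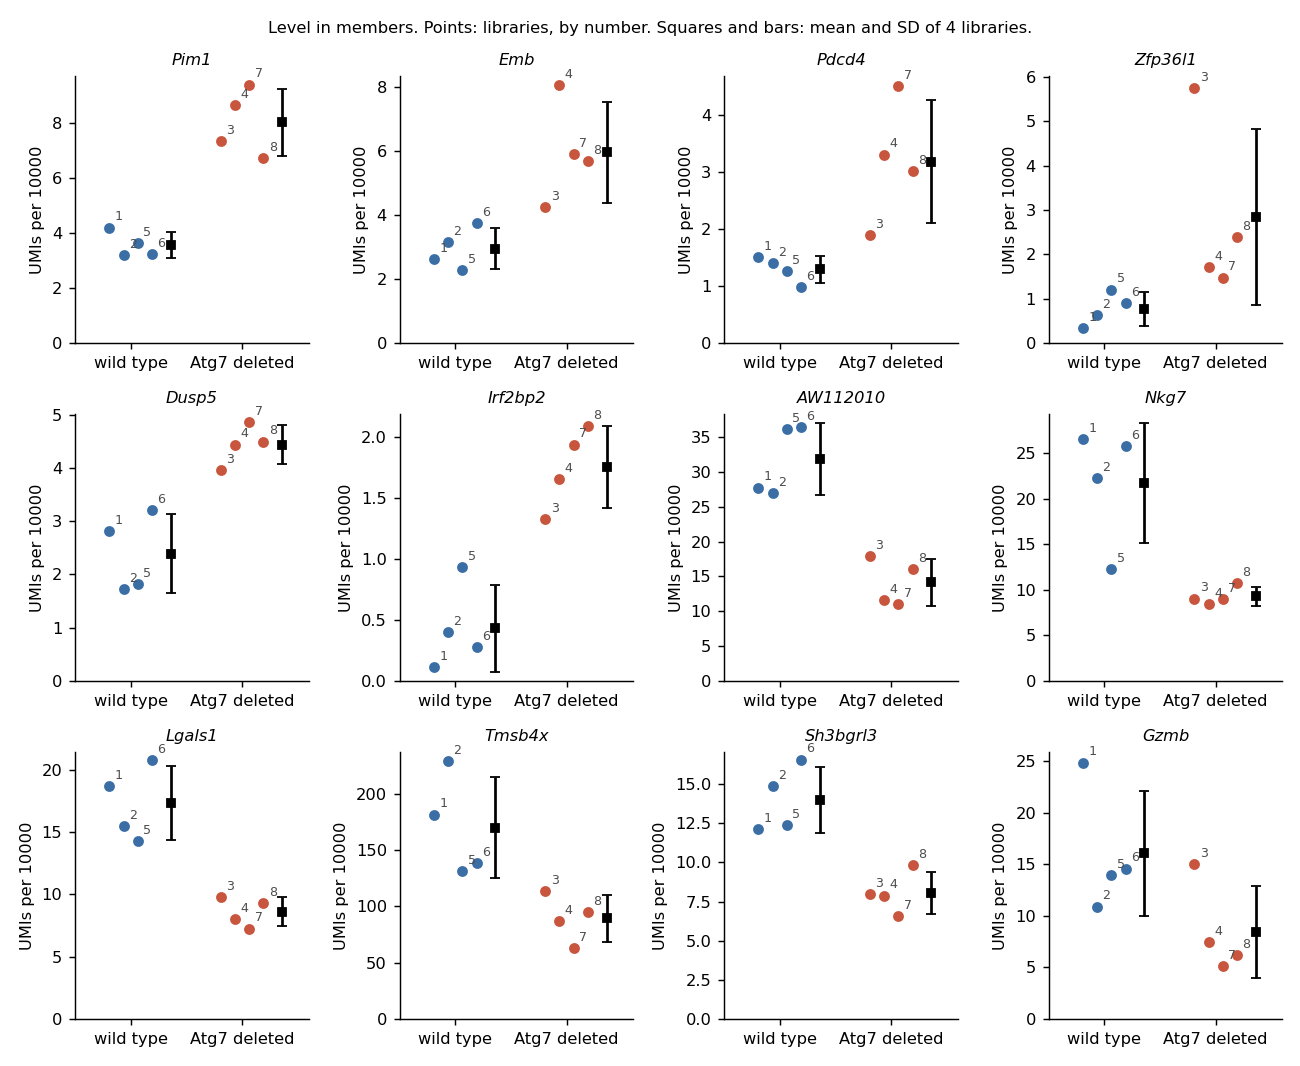
Level in members, as mean UMIs per 10000, of 12 genes by library and host genotype, with squares and bars for the mean and SD of 4 libraries. The first 6 genes are higher in every deleted library than in any wild-type library, the next 5 are lower, and Gzmb overlaps between the genotypes.

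When members rich in RNA of another cell type were left out (20 or more summed UMIs per 10000 of 1 of the 6 lists), 457 of 563 remained, and with the barcode set as a term 26 of 5854 genes passed (0.444%), 18 higher and 8 lower in deleted hosts. This setting was added after the data were seen. Dendritic cell markers were not among the 6 lists, so the filter did not act on them. Before it they summed to 3.82 to 23.7 UMIs per 10000 in wild-type and 7.62 to 33.5 in deleted libraries. All 3 genes above were among the 26. In adjusted p, Pim1 was at 0.00293, Emb at 0.00393, Pdcd4 at 0.000327, Zfp36l1 at 0.0361, Dusp5 at 0.0492 and AW112010 at 0.0361. Without the set term, 0 of the same 5854 genes passed, with 633 at an unadjusted p under 0.05. The 26 included Apoe (log2 difference 0.68), which is itself on the macrophage list. Others among them, on none of the gene lists used here, were Gm42418 (limma adjusted p = 0.000145), Gm47283 (0.000327), Mt1 (0.000850) and Mt2 (0.0152).

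Cytotoxic genes had lower levels in deleted hosts for several of the main effectors, but none passed. Of the 12 tested cytotoxic granule and death ligand genes, 4 had a log2 difference above 0 and 8 below, with a median of -0.05, and 0 passed, where all 6904 genes had 4980 above and 1924 below with a median of 0.05. Nkg7, needed for granule release, stood at 26.6, 22.3, 12.2 and 25.8 UMIs per 10000 in libraries 1, 2, 5 and 6 and at 9.04, 8.39, 8.95 and 10.7 in libraries 3, 4, 7 and 8, without overlap (log2 difference -1.06, SE 0.41, adjusted p = 0.478). For Gzmb, the protease granzyme B, the levels were 24.9, 10.9, 13.99 and 14.6 and 15.02, 7.42, 5.10 and 6.20. Deleted library 3 reached above 3 of the wild-type libraries, so Gzmb overlapped (log2 difference -0.97, SE 0.39, adjusted p = 0.481). Without library 1, its highest library, the log2 difference of Gzmb was -0.59, and that of Prf1, the perforin gene, -0.28 in place of -0.51. Prf1 had means of 3.67 ± 2.86 and 1.27 ± 1.12, and the lysosomal membrane gene Lamp1 1.297 ± 0.599 and 2.33 ± 0.604. Thus Lamp1 lay on the other side from Gzmb and Prf1.

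Of the secreted factors, Ccl5 was at 89.5, 122, 88.3 and 129 in the wild-type libraries and at 50.8, 54.4, 68.6 and 61.8 in the deleted ones, again without overlap (log2 difference -0.68, SE 0.40, adjusted p = 0.544). The log2 difference of Ccl5 was -0.36 without cells rich in other-type RNA, -0.42 without library 3 and -0.44 without library 6. Ifng, the gene of interferon gamma, stood at 1.66 ± 1.28 and 1.45 ± 0.660 (log2 difference 0.01, SE 0.14), and from thinned levels the log2 difference was -0.25. Ccl4, a chemokine of activated CD8 T cells, stood at 7.54 ± 8.05 and 7.23 ± 4.02, and its sign also turned with thinning. Of the 12 tested cytokines and chemokines of T cells, 6 had a log2 difference above 0 and 6 below, with a median of -0.01, and 0 passed. On the summed-UMI scale the same list had 3 above and 9 below, with a median of -0.40.

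Naive and memory genes had log2 differences above 0 for most of the list, as had most of all genes tested. Of the 19 tested naive and memory T cell genes, 16 had a log2 difference above 0 and 3 below, with a median of 0.20, and 0 passed, where all 6904 genes had 4980 above 0. On the summed-UMI scale 15 of the 19 and 3624 of all genes were above 0. Klf2, a transcription factor that controls exit from tissues, stood at 0.602, 0.609, 0.656 and 0.881 in libraries 1, 2, 5 and 6 and at 3.06, 1.71, 1.24 and 4.45 in libraries 3, 4, 7 and 8, without overlap (log2 difference 0.64, SE 0.14, adjusted p = 0.302). Its relative Klf3 had means of 0.272 ± 0.143 and 0.903 ± 0.384, also without overlap. Tcf7 was at 0, 0.279, 0.598 and 0.679 and at 0.146, 1.05, 1.84 and 0.994. Library 3 was below 3 wild-type libraries for Tcf7, and it differs from the other deleted libraries in this gene. Il7r stood at 1.76 ± 0.448 and 1.33 ± 0.613, and the sign of Il7r turned with thinning.

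Effector and residency genes had differences of both signs, beside 4980 of all 6904 tested genes above 0. Of the 10 tested short-lived effector genes, 8 had a log2 difference above 0 and 2 below, with a median of 0.12, and 0 passed. For this list the median of thinned levels was -0.04. Cx3cr1, a fractalkine receptor of circulating effector cells, stood at 0.937, 0.298, 0.651 and 0.426 in the wild-type and 0.123, 0.123, 0 and 0.0372 in the deleted libraries, lower without overlap (log2 difference -0.21, SE 0.07, adjusted p = 0.436). Of the 11 tested genes of tissue residency, 7 had a log2 difference above 0 and 4 below, with a median of 0.04, and 0 passed. Within this list the chemokine receptor gene Cxcr6 had means of 4.31 ± 0.957 and 2.05 ± 1.07, and the G protein regulator Rgs16 3.38 ± 0.765 and 1.27 ± 1.09, both with lower means in deleted hosts. When the rule was applied at 1000 UMIs, which also left library 7 out with fewer than 10 members, the log2 difference of Cxcr6 was 0.17. The activation antigen gene Cd69 had means of 1.47 ± 1.10 and 2.55 ± 0.802. Among homing receptors, Cxcr4 had 0.665 ± 0.270 and 1.55 ± 0.607, and Cxcr3 0.639 ± 0.349 and 1.05 ± 0.333. Cxcr3 and Cxcr6, receptors that guide T cells within inflamed tissue, thus had differences of opposite sign, and neither passed.

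Genes induced by stress and NF-kB had higher means in deleted hosts for nearly all of each list, and early genes of the T cell receptor for a smaller share than all genes tested, of which 4980 of 6904 were above 0. Many of these genes are also known to be induced when tissue is dissociated. Of the 20 tested dissociation and immediate early genes, 19 had a log2 difference above 0 and 1 below, with a median of 0.45, and 0 passed. Klf6 stood at 3.62, 2.83, 3.31 and 2.21 and at 11.3, 3.99, 3.38 and 5.95, Dusp1 at 2.096 ± 1.33 and 4.35 ± 2.99, and Fosb at 0.926 ± 0.426 and 2.61 ± 1.69. For all 3 the highest library was library 3, and without it their log2 differences were 0.55, 0.45 and 0.43 in place of 0.92, 0.78 and 0.62. Of the 16 tested NF-kB target genes, 14 had a log2 difference above 0 and 2 below, with a median of 0.22, and 0 passed. Tnfaip3, which encodes the A20 feedback inhibitor, stood at 1.94, 3.03, 5.40 and 4.92 in libraries 1, 2, 5 and 6 and at 5.75, 5.25, 7.80 and 10.1 in libraries 3, 4, 7 and 8, overlapping by library 4 (log2 difference 1.02, SE 0.28, adjusted p = 0.436). Of the 17 tested early genes induced by the T cell receptor, 11 had a log2 difference above 0 and 6 below, with a median of 0.13, and 0 passed. Of these, Nr4a1, a nuclear receptor gene that reports recent receptor signals, was at 1.11 ± 0.554 and 1.59 ± 0.239. On the summed-UMI scale, where all genes split into 3624 above and 3280 below, 18 of the 20, 13 of the 16 and 11 of the 17 genes of these lists were above 0.

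Interferon gamma and type I interferon genes were read as separate lists, beside 4980 of all 6904 tested genes with a log2 difference above 0. Of the 25 tested interferon gamma response genes, 21 had a log2 difference above 0 and 4 below, with a median of 0.21, and 0 passed. Irf1, the transcription factor at the head of this response, stood at 0.953, 1.11, 0.683 and 1.34 and at 2.24, 2.33, 1.47 and 1.69, higher without overlap (log2 difference 0.60, SE 0.15, adjusted p = 0.436). The immunity-related GTPase genes Igtp and Iigp1 had means of 0.776 ± 0.226 and 1.61 ± 0.818, and of 0.0556 ± 0.0808 and 0.663 ± 0.498. Of the 26 tested type I interferon response genes, 17 had a log2 difference above 0 and 9 below, with a median of 0.01, and 0 passed. On the summed-UMI scale the median of the type I list was -0.28 and that of the interferon gamma list 0.36, so the sign of the first depends on the scale. Isg20, an exonuclease gene, stood at 1.46, 2.45, 1.17 and 1.92 and at 0.783, 0.449, 0 and 0.628, lower without overlap, and Bst2, the gene of tetherin, at 4.98 ± 1.16 and 2.12 ± 0.478, also lower without overlap.

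Most cytokine signalling genes had the sign of Pim1, which is itself on that list, as had 4980 of all 6904 genes tested. Of the 20 tested cytokine signalling and feedback genes, 18 had a log2 difference above 0 and 2 below, with a median of 0.10, and 0 passed. On the summed-UMI scale 13 were above 0 and 7 below, where all genes had 3624 above and 3280 below. Socs3, a feedback inhibitor of IL-6 family signals, was at 0.498 ± 0.508 and 1.61 ± 0.894, and Il6st, the shared receptor chain of that family, at 0.234 ± 0.0507 and 1.02 ± 0.881. Il6st was highest in library 3 and without it had a log2 difference of 0.21 in place of 0.41. Of the 24 tested T cell lineage transcription factors, 20 had a log2 difference above 0 and 4 below, with a median of 0.13, and 0 passed. On the summed-UMI scale 19 of the 24 were above 0. Eomes, a T-box factor of memory and exhausted CD8 cells, stood at 0.263, 0.252, 0.198 and 0.432 and at 0.476, 0.446, 0.942 and 1.03, higher without overlap. Rora had 1.64 ± 0.338 and 2.70 ± 0.531, and Runx1 0.540 ± 0.357 and 1.15 ± 0.668.

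Receptors showed both directions. Of the 5 tested NK receptors, 1 had a log2 difference above 0 and 4 below, with a median of -0.24, and 0 passed. Klrd1, which pairs as CD94 with NKG2 chains to read the MHC molecule Qa-1, stood at 7.54, 6.74, 5.30 and 5.36 in libraries 1, 2, 5 and 6 and at 2.83, 3.34, 1.66 and 3.02 in libraries 3, 4, 7 and 8, and Klre1, another lectin-like receptor gene, at 1.19 ± 0.877 and 0.249 ± 0.169. Both were lower without overlap, at adjusted p of 0.455 and 0.478. Library 1 was the highest for Klre1, at 2.40, and without it the log2 difference of Klre1 was -0.22 in place of -0.47. Of the 16 tested costimulatory receptors, 6 had a log2 difference above 0 and 10 below, with a median of -0.06, and 0 passed. Tnfrsf9, the costimulatory receptor 4-1BB, had means of 4.64 ± 1.72 and 2.76 ± 0.800. Of the 14 tested genes of chronic stimulation, 6 had a log2 difference above 0 and 8 below, with a median of -0.02, and 0 passed. Lgals3, the gene of galectin 3, had 9.49 ± 3.94 and 4.69 ± 0.620, with 1 wild-type library, 5, inside the deleted range. Without library 1 the log2 differences of Tnfrsf9 and Lgals3 were -0.37 and -0.60 in place of -0.60 and -0.94. Inhibitory receptors outside the rule were few. Of the 5 tested genes of this kind, 3 had a log2 difference above 0 and 2 below, with a median of 0.01, and 0 passed, while the median of summed UMIs was -0.09.

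In metabolic, replication and antigen presentation genes no difference passed either. Of the 16 tested glycolysis genes, 6 had a log2 difference above 0 and 10 below, with a median of -0.07, and 0 passed. Ldha, lactate dehydrogenase A, stood at 11.02, 8.41, 6.98 and 7.06 and at 5.99, 4.50, 4.19 and 4.35, lower without overlap (log2 difference -0.59, SE 0.32, adjusted p = 0.522). Of the 17 tested replication genes, 9 had a log2 difference above 0 and 8 below, with a median of 0.01, and 0 passed, and on the summed-UMI scale the medians of the glycolysis and replication lists were -0.69 and -0.46. Tuba1b, a tubulin gene, was at 1.71 ± 0.225 and 2.41 ± 0.272, with a log2 difference of -0.02 when the rule was applied at 1000 UMIs without library 7. Of the 16 tested genes of MHC class I and peptide loading, 13 had a log2 difference above 0 and 3 below, with a median of 0.18, and 0 passed. On the summed-UMI scale this median was -0.03. The nonclassical class I gene H2-Q4 stood at 0, 0.375, 3.26 and 2.67 and at 1.21, 1.26, 4.95 and 2.94, with higher levels in libraries 5 to 8 of both genotypes. Cytokine receptors had 16 of 23 tested genes above 0 and chemokine and homing receptors 12 of 17, and none passed. All 6904 genes tested had 4980 above 0, a share close to that of these 2 receptor lists.

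Atg7 itself was at 0.0753, 0.310, 0.0545 and 0.0633 UMIs per 10000 in libraries 1, 2, 5 and 6 and at 0, 0.0972, 0 and 0.110 in libraries 3, 4, 7 and 8 (exact permutation p = 0.343). Behind these levels are 1, 18, 3 and 2 UMIs and 0, 5, 0 and 2 UMIs, and 26 of 563 members (4.62%) had any. The genotypes overlap, and libraries 3 and 7 are at 0, which allows up to 0.0731 and 0.511 per 10000 by a floor of 3 counts. Of the 23 tested genes of ATG conjugation, LC3 and autophagy receptors, 18 had a log2 difference above 0 and 5 below, with a median of 0.08, and 0 passed, and for thinned levels the median was -0.01. All 6904 genes tested had 4980 above 0. On the summed-UMI scale this list had 12 above 0 and 11 below. Gabarapl1 had 0.308 ± 0.207 and 0.624 ± 0.295, and Ulk1, the kinase that starts autophagosome formation, 0.179 ± 0.179 and 0.437 ± 0.256. The level of Atg7 RNA cannot separate the genotypes at this depth, and where in the transcript its UMIs lie was not analysed here.

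Shares of members with a UMI were compared after thinning every member to 1000 UMIs, which left 541 members. None of 17 genes passed after adjustment over the 17 (exact two-sided permutation test over libraries). Gzmb had a UMI in 76.5, 46.2, 44.6 and 50.4% of members in libraries 1, 2, 5 and 6 and in 45.7, 28.1, 27.8 and 24.2% in libraries 3, 4, 7 and 8 (54.4 ± 14.9% against 31.4 ± 9.63%, SD, n = 4 each, exact permutation p = 0.0571, adjusted 0.324). In malignant-marker cells of the same libraries the share was at most 0.345%, so the share in members was above that of free RNA in every library. Unthinned, the Gzmb shares were 70.9 ± 15.6% and 58.7 ± 13.5%. Cx3cr1 was the 1 gene without overlap at this depth, at 17.6, 5.88, 3.26 and 3.36% and 2.17, 1.56, 0 and 0% (exact permutation p = 0.0286, adjusted 0.324). Its difference in percentage points was -6.60, and -3.23 without library 1. At 1500 UMIs Cx3cr1 overlapped (-1.95 points, exact permutation p = 0.286), while Gzmb (58.8 ± 6.66% and 39.8 ± 9.47%), Cxcr6 (38.2 ± 7.96% and 17.8 ± 7.91%) and Nr4a1 (10.5 ± 3.91% and 21.3 ± 4.47%) did not overlap (exact permutation p = 0.0286 each, adjusted 0.162). Thus which gene lies apart differed between these settings, and the deeper one also leaves out members with fewer than 1500 UMIs. Nr4a1 overlapped at 1000 UMIs, with 8.48 ± 2.99% and 12.7 ± 1.75% (exact permutation p = 0.114), and unthinned it had 11.8, 13.9, 12.4 and 19.2% in libraries 1, 2, 5 and 6 against 50, 45.3, 38.9 and 33.3% in libraries 3, 4, 7 and 8, without overlap (exact permutation p = 0.0286, adjusted 0.243). Malignant-marker cells thinned to 1000 UMIs had Nr4a1 in up to 7.41%.

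Receptor genes went in both directions in these shares. Cxcr6 had a UMI in 29.4, 26.9, 28.3 and 29.4% of members in the wild-type libraries and in 28.3, 15.6, 5.56 and 15.2% in the deleted ones (exact permutation p = 0.0857). Cxcr3 had 0, 8.40, 1.09 and 5.88% and 10.9, 15.6, 16.7 and 7.58% (exact permutation p = 0.0571). Library 3 was the deleted library with a Cxcr6 share close to the wild-type ones. Prf1 had 15.4 ± 3.80% and 11.9 ± 13.9%, and 32.6% in library 3 lay far above the other deleted libraries. Ifng had 16.3 ± 10.5% and 9.56 ± 1.56%, Gzmk 9.43 ± 4.13% and 10.5 ± 1.86%, and Klrk1, the activating receptor NKG2D, 21.3 ± 6.05% and 14.9 ± 6.49%. Tcf7 had 2.85 ± 2.81% and 9.77 ± 9.37%, Il7r 11.3 ± 1.69% and 13.96 ± 9.35%, and Ctla4 10.7 ± 5.79% and 14.8 ± 2.85%. Itgae, Klrg1, Tox and Entpd1 had mean shares under 5% in both genotypes, where a library of 17 or 18 cells resolves little.

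**Figure D4:**
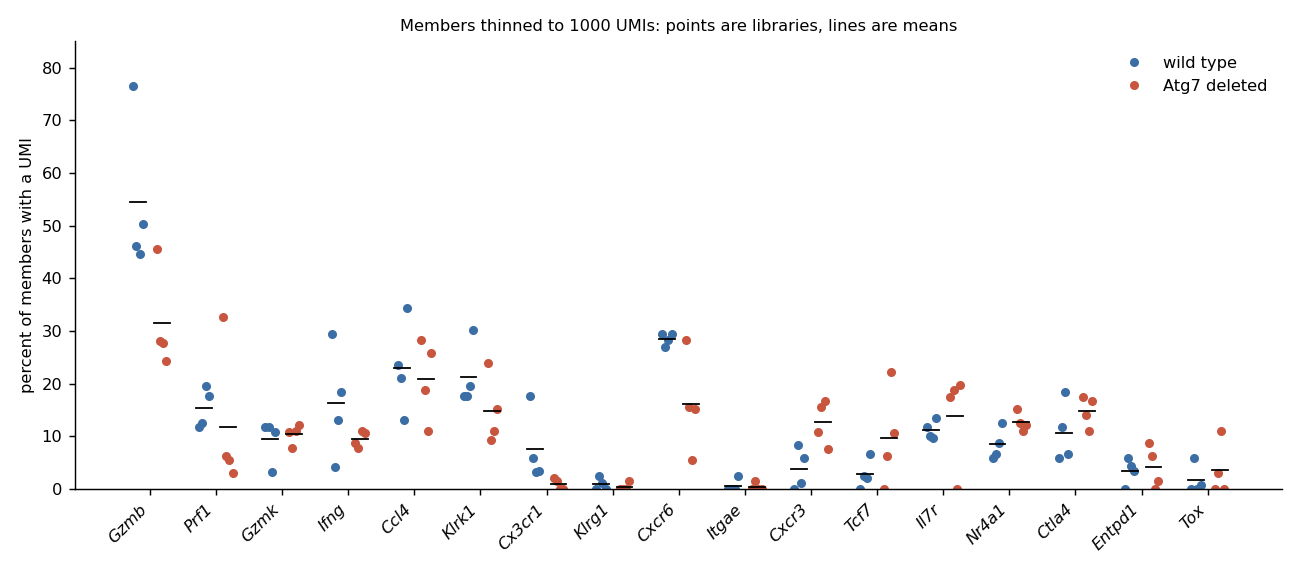
Percent of members with a UMI of 17 genes after thinning to 1000 UMIs, by library (points) and host genotype, with lines for the mean of 4 libraries. Gzmb has the highest shares, and Cx3cr1 is the 1 gene whose genotypes do not overlap at this depth.

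Memory and effector genes were also read together in single members at 1000 UMIs, where a gene without a UMI may still be expressed. Over all libraries, 226 of the 541 thinned members (41.8%) had a UMI of an effector gene (Gzmb, Prf1, Gzmk or Gzma) and none of a memory gene (Tcf7, Il7r, Ccr7 or Lef1), 79 (14.6%) the reverse, 68 (12.6%) both and 168 (31.1%) neither. Effector-only members made up 64.7, 48.7, 39.1 and 50.4% in libraries 1, 2, 5 and 6 and 47.8, 26.6, 27.8 and 25.8% in libraries 3, 4, 7 and 8. Memory-only members made up 0, 12.6, 7.61 and 13.4%, and 19.6, 20.3, 22.2 and 22.7%. All 4 deleted libraries were above the wild-type libraries in the memory-only share, with 0 to 16 such cells per library behind it. A member with an effector UMI cannot be memory-only, so this share also depends on the effector genes. Members with any memory gene made up 17.6, 23.5, 20.7 and 28.6% in the wild-type libraries. In the deleted libraries they made up 28.3, 34.4, 33.3 and 33.3%, so the genotypes overlapped by libraries 3 and 6. In malignant-marker cells at the same depth, shares with a UMI were at most 0.151% for Prf1 and 0.753% for Il7r, and 0% for Gzmk and Tcf7, and Gzma, Ccr7 and Lef1 were not read there. These groups of cells were not tested.

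Compared with non-cycling CD8 T cells that carried 2 or more of the checkpoint genes (399 cells), the members had lower levels of effector, activation and glycolytic genes. The 4 checkpoint genes that make the split are left out, and since genes that go along with them, and depth, enter the split as well, the values describe how the populations differ rather than an independent finding. Members were shallower in 6 of 7 libraries. Of 7464 genes tested over 7 libraries with the library as a block, 18 passed in limma as lower in members (0.241%) and 0 as higher (0.0%), and library 7 was left out with 3 checkpoint-high cells. The count of 18 was 11 without library 4, 8 without library 5, 7 without library 8 and 68 without cells rich in other-type RNA. Lower in every library were 96 genes (1.29%) and higher in every library 103 (1.38%). Gzmb stood at 24.9, 10.9, 15.02, 7.42, 13.99, 14.6 and 6.20 UMIs per 10000 in members of libraries 1, 2, 3, 4, 5, 6 and 8 and at 59.5, 19.9, 56.4, 22.1, 31.6, 37.3 and 19.4 in the checkpoint-high cells. It was lower in members in all 7 libraries, with a log2 difference of -1.35 (SE 0.14) and an adjusted p of 0.000214.

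Other effector and activation genes also passed as lower in members. Prf1 was at 2.73 ± 2.46 in members and 5.73 ± 4.04 in checkpoint-high cells (SD, n = 7, log2 difference -0.76, SE 0.11, limma adjusted p = 0.00521). Tnfrsf9 was at 3.68 ± 1.72 and 7.03 ± 2.70 (log2 difference -0.92, SE 0.13, adjusted p = 0.00434), and Ctla4, an inhibitory receptor of CD28 ligands, at 1.51 ± 0.634 and 3.68 ± 2.79 (log2 difference -0.72, SE 0.11, adjusted p = 0.00521). Rgs16 was at 2.58 ± 1.33 and 5.27 ± 1.94 (adjusted p = 0.00915). The cytotoxic list had 3 of 16 tested genes called lower (Gzmb, Nkg7 and Prf1), the glycolysis list 3 of 16 (Aldoa, Gapdh and Pgk1), with all 16 of its genes below 0, and the naive and memory list 0 of 19.

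Of the 18 genes, 3 also passed when both populations were thinned to 1000 UMIs. These were Gzmb (-1.29, adjusted p = 0.00291), Prf1 (-0.85, 0.00989) and Gapdh (-1.06, 0.0137). Tnfrsf9 was then at -0.58 (adjusted p = 0.325). Of the 19 tested naive and memory genes, 14 had a log2 difference above 0 in members and 5 below, and 0 passed. Klf2 was at 0.602, 0.609, 3.06, 1.71, 0.656, 0.881 and 4.45 in members and 0.565, 0.368, 0.184, 0.392, 0.275, 0.129 and 0.506 in checkpoint-high cells, higher in 7 of 7 libraries. Tcf7, at 0 in both populations of library 1, was at 0.535 ± 0.409 and 0.0408 ± 0.0576. They did not pass on the mean log2 scale (adjusted p of 0.136 and 0.0927), but without cells rich in other-type RNA both passed on that scale as higher in members (0.0336 and 0.0318). On the scale log2(mean UMIs per 10000 + 0.25), which weighs low genes more, 11 genes passed as higher in members, among them Klf2 (adjusted p = 0.0238), Tcf7 (0.0234), Pdcd4 (0.0234), the egress receptor gene S1pr1 (0.0380) and Emb (0.0420).

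**Figure D5:**
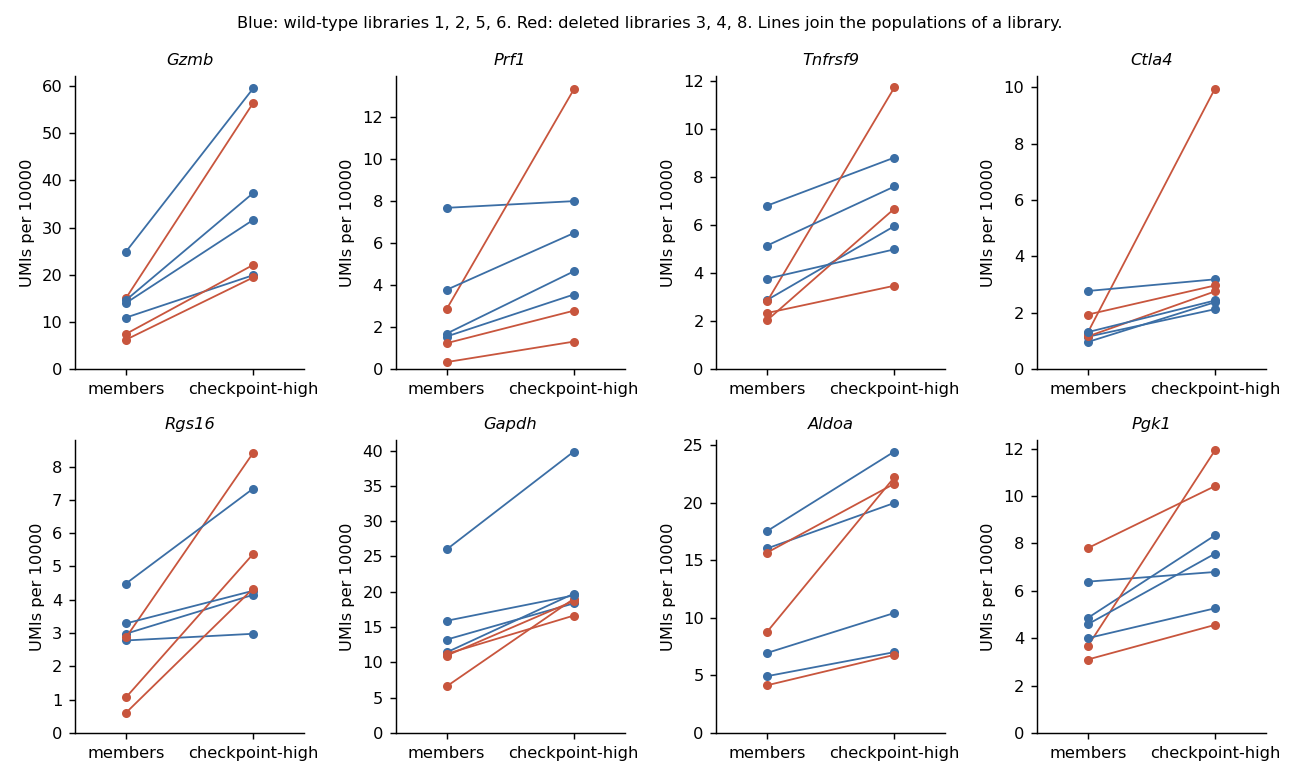
Level, as mean UMIs per 10000, of 8 genes in members and in checkpoint-high non-cycling CD8 T cells, with a line for each of 7 libraries coloured by host genotype. The line rises towards the checkpoint-high cells in every library for all 8 genes.

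With all cells of the 7 libraries, the genotype differences of members were not shown to differ from those of checkpoint-high cells. In the interaction of genotype and population, 0 of 7464 genes passed in limma (0.0%), and 296 (3.97%) had an unadjusted p under 0.05. Without library 4, 1 gene passed (Ccl5). Without cells rich in other-type RNA, 3 passed, which were Gm42418, S100a6 and Tmsb4x. Tmsb4x, also named above for genotype, then had an interaction of -0.34 on the log2 scale (limma adjusted p = 0.0396). For Pim1 the interaction was -0.05 (SE 0.27) on the log2 scale, and for Gzmb -0.55 (SE 0.26, unadjusted p = 0.0527, adjusted 0.971). With 3 deleted libraries and as few as 10 checkpoint-high cells in library 3, this test is coarse.

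T cell receptor beta variable genes had enough UMIs to read in libraries 5 to 8 only. Members of libraries 5, 6, 7 and 8 held 39, 204, 9 and 75 Trbv UMIs, found in 28.6, 60.0, 27.8 and 53.0% of them. Trbv16 (35.9%) and Trbv29 (25.6%) led in library 5, Trbv29 (24.0%), Trbv1 (17.2%) and Trbv20 (10.8%) in library 6, and Trbv4 (20%), Trbv1 (16%) and Trbv14 (14.7%) in library 8. In library 7, Trbv29 held 77.8% of 9 UMIs. No gene took more than 35.9% of Trbv UMIs in the 3 libraries with 39 UMIs or more, and usage was not compared between genotypes.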

How the data were processed

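Single-cell RNA was measured in 8 tumor libraries, 4 per host genotype. Per the submitters' processing notes, Cell Ranger 2.1 and Seurat 3.0 were used with mm10. The authors deposited natural log values, ln(1 + UMIs per 10000 of a cell). UMIs were recovered from them, and 100% of values were whole within 0.01. Deposited cells had 201 to 5000 genes and under 20% mitochondrial UMIs. Library totals ran from 4371773 to 59235799 UMIs. No doublet caller was run.

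The members and gene lists were chosen with earlier results of these data known. The planned test allowed for deposited counts. Because the values are logs, limma 3.58.1 (R 4.3.3) was fitted on mean log2 values per library, with Benjamini-Hochberg adjustment over all tested genes and adjusted p under 0.05 as threshold. Its p-values measure the spread between libraries. Shares were tested with exact two-sided permutations over libraries (scipy 1.17.1). Named genes were the 5 higher and 5 lower genes of largest difference among those without overlap, up to 4 tested genes per list of smallest unadjusted p, 17 genes of the shares, up to 8 calls per direction against checkpoint-high cells, and the 3 most used Trbv genes of a library. Irf2bp2, Apoe, Gm42418, Gm47283, Mt1, Mt2, S100a6 and the genes named on the +0.25 scale were chosen after their values were seen. Alternatives changed scale, filter, depth, rule, barcode set, cells rich in other-type RNA and libraries. A gene planned for the shares is not reported here. Scripts were tested on simulated data. Coordinates are from GENCODE M21.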

Additional observations from a re-analysis of the deposited data

Results flagged for a closer look

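In 12 of 150 groups of 4 libraries examined, 1 library lay far from the other 3 by Dixon's criterion, which chance alone meets in about 1 of 20 groups. Median mitochondrial UMIs of members were 3.15% in wild-type library 6, where the nearest other wild-type library had 4.73%. The share of members with a UMI of Gzmk, after thinning, was 3.26% in wild-type library 5 and 10.9% in the nearest other. Klrk1 stood apart at 30.3% in wild-type library 6 (nearest 19.6%). Il7r was at 0% in deleted library 7, which has 18 members, with the nearest at 17.4%. Prf1 stood at 32.6% in deleted library 3, the library richest in fibroblast RNA, with the nearest at 6.25%. Tox was at 5.88% in wild-type library 2 (nearest 0.840%). Rare genes met the criterion through 1 library with any UMI: Itgae at 1.56% in deleted library 4 and 2.52% in wild-type library 6, and Klrg1 at 1.52% in deleted library 8. Among levels per 10000 UMIs, Ulk1 was at 0.818 in deleted library 7 (nearest 0.353), Gabarapl1 at 0 in wild-type library 1 (nearest 0.383), and Ccl4 at 19.5 in wild-type library 6 (nearest 4.96).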

How the results depend on the processing

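No paired analysis was possible because the genotypes share no replicate number in the labels. Counts of genes passing for genotype were 0 in all settings other than 1 without library 3, 3 with the barcode set as a term, and 26 with that term and without cells rich in other-type RNA (chosen after seeing the data). The planned genotype test had no barcode set term. Leaving out 1 library gave 0 to 1. For members against checkpoint-high cells, the higher count was 11 on the +0.25 scale and 6 without other-type-rich cells. The lower count was 0 with no filter, 3 thinned, 68 without other-type-rich cells, and 7 to 21 with 1 library left out (11 without library 4, 8 without 5, 7 without 8). The interaction gave 3 without other-type-rich cells and 1 without library 4. The share of all cells changed sign, to 0.174 points without library 2 and 0.135 with no checkpoint gene allowed, and was -0.869 to 0.174 with 1 library left out. Differences in shares of T, CD8 T and non-cycling CD8 T cells kept their sign with 1 library left out (-13.8 to -10.8, 17.1 to 24.5 and 17.9 to 26.6 points). With no checkpoint gene allowed, the difference in the share of T cells was -1.94 points, with overlap. With the rule at 1000 UMIs, the differences in shares of CD8 T and non-cycling CD8 T cells were 8.24 and 3.40 points, both with overlap.

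Shares with a UMI that changed sign, in percentage points, were Ccl4 (-5.36 to 1.78 with 1 library left out, above 0 without library 6 and, at 1.25, without 7; 3.43 unthinned), Entpd1 (-0.809 to 2.09, below 0 without 3 and, at -0.415, without 1; -2.04 at 1500 UMIs), Gzmk (-1.01 without 5, to 1.94; -1.72 at 1500), Ifng (1.51 unthinned), Il7r (-1.28 at 1500), Itgae (-0.630 to 0.391, above 0 without 6; 0.162 unthinned), Klrg1 (-0.902 to 0.0165, above 0 without 2; 1.16 unthinned), Klrk1 (6.78 unthinned) and Tox (-0.639 without 7, to 3.28; -1.59 unthinned, -2.16 at 1500). Log2 differences that changed sign were Cxcr6 (0.17 with the rule at 1000 UMIs, a setting that also lost library 7), Tuba1b (-0.018 there, -0.039 by voom without other-type-rich cells), Ifng (-0.25 thinned, -0.027 on the +0.25 scale, and -0.10 to 0.083 with 1 library left out, below 0 without 2, 3, 5 or 8), Il7r (0.093 thinned, 0.15 with the rule at 1000, and -0.19 to 0.048 with 1 library left out, above 0 without 1 or 7) and Ccl4 (-0.088 thinned, and -0.15 to 0.27 with 1 library left out, below 0 without 3 or 5). The causes were not tested. The checkpoint comparison with the rule at 1000 UMIs was not run, as too few libraries kept 10 checkpoint-high cells. Libraries 1 and 7 rest on 17 and 18 members.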
